A study of Mus musculus with 10 samples.

Results

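The immunoproteasome and the MHC class I presentation pathway were followed in primary mouse cortical neurons exposed to lactacystin, an irreversible inhibitor of the proteasome. The set holds 9 of the 8949 genes named on the U74Av2 array: Psmb8, Psmb9, Psmb10, Psme1, Psme2, Tap1, Tap2, Tapbp and B2m. Every probe set whose platform annotation gives one of these symbols, or a synonym of it, was taken from both value tables. That gave 14 probe sets of the 12422 on the U74Av2 array that are not hybridisation controls. Of these, 10 were also on the older U74A array, which has 9977 such probe sets, and 4 were on U74Av2 alone. Both probe sets of Psme2 are annotated to Psme2b as well, so their signal cannot be assigned to either gene.

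The cultures were prepared from the cortices of Swiss albino fetuses of gestation day 15 to 16, and all groups were taken on from day 5 in vitro. Lactacystin groups received 1 µM lactacystin in serum-free medium for 24 h (3 arrays) or 48 h (3 arrays), from a stock in DMSO, and the control groups hold 2 arrays at each time. Whether controls received DMSO is not stated, and neither is whether replicates came from separate cultures. The p-values therefore reflect only how far these arrays spread, and that spread may be technical. The study is titled as a profile of neuronal death under lactacystin, and the comparison of the groups asks how these transcripts differ in the exposed cells.

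The proteasome cuts proteins into peptides with 3 catalytic beta subunits, Psmb5, Psmb6 and Psmb7. In cells that receive interferon gamma these are replaced in newly built particles by Psmb8, Psmb9 and Psmb10, and the cap formed by Psme1 and Psme2 opens the particle's gate. Peptides then enter the endoplasmic reticulum through the transporter made of Tap1 and Tap2, tapasin (Tapbp) holds the transporter and the class I heavy chain together, and B2m is the light chain without which most class I molecules do not reach the cell surface. Resting neurons are known for low levels of this machinery.

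Signals below are deposited MAS5 intensities, scaled so that each array has a 2% trimmed mean of 500 over the shared probe sets. Changes are lactacystin minus control on the scale log2(signal + 32), which understates the change of low probe sets, and errors of changes are standard errors (SE). A probe set was called where limma's adjusted p, taken over the 6984 probe sets tested, was under 0.05. The 4 U74A arrays held lactacystin replicate 1 of 24 h, lactacystin replicate 3 of 48 h and the first replicate of each control group, and design was a covariate in the fit. The 2993 shared probe sets of lowest mean log2 value were not tested. Of the 10 shared probe sets of the set, 7 passed this filter, standing for 6 of the 9 genes, while those of Psmb8, Psmb9 and Tap2 did not. Because RNA was taken from whole cultures, fewer cells of a type and less RNA per cell cannot be told apart. Before scaling, the median deposited signal of an array over all probe sets of its own design ran from 140.6 to 234.1. Precision is bounded by how few arrays there are.

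The upstream sequences of B2m, Tapbp and of the pair Tap1 and Psmb9 are shown because the first 3 of these genes hold every call among the 7 tested probe sets of the set, and Psmb9 shares its start region with Tap1. They are the plus strand of GRCm38.p6 from RefSeq, which is C57BL/6J sequence and not that of the Swiss albino cultures, and the last base lies just before the transcription start. Capitals mark matches to the searched motifs, which are an interferon-stimulated response element core and, after it, a kappaB consensus read on the other strand.
B2m, chr2:122147437-122147686: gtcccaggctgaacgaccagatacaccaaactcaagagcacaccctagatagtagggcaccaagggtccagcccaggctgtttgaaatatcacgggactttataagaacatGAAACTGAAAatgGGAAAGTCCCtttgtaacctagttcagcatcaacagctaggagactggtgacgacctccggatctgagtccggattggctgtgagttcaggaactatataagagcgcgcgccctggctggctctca
Tapbp, chr17:33919228-33919477: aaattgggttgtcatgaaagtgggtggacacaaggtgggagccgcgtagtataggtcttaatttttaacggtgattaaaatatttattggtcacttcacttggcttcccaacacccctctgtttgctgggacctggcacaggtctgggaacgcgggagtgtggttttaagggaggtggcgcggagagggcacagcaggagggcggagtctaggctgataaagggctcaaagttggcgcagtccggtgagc
Tap1 and Psmb9, the 225 bases between their divergent starts, chr17:34187331-34187555: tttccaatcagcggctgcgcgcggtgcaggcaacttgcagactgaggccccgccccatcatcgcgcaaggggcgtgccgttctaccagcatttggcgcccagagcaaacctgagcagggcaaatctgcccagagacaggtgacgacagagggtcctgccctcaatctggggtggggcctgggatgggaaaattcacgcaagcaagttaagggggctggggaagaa
RefSeq promoter entries were matched for 8 of the 9 genes, Tap2 being the other. The 250 bases before each start were searched on both strands for the response element core (GAAA, any 2 bases, GAAA), TTCNNNGAA (a GAS element), TGACNNNGC (an antioxidant response element core) and the kappaB consensus, with no overlap between the matches found. B2m held the response element core, as gaaactgaaa, 139 to 130 bases before its start, and the kappaB match ggaaagtccc at 126 to 117 bases. Of 32851 promoters in the table, 2.98% held the response element core and 7.25% the kappaB consensus. Psmb8 held a GAS match, ttcccagaa, at 97 to 89 bases, as did 7.02% of all promoters. Psmb5 and Psmb6, the constitutive subunits, each held the antioxidant core, found in 10.2% of all promoters. None of these letters was found in the windows of Tapbp, Tap1, Psmb9, Psmb10, Psme1 or Psme2. Such a match is a description of the letters and not of binding.

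B2m, the class I light chain, rose at both times. Its signal was 742.0, 625.9 and 461.8 in lactacystin cultures at 24 h, against 346.8 and 342.5 in controls. The 48 h readings were 660.8, 550.3 and 1008 in lactacystin cultures, against 414.3 and 318.9 in controls. Every exposed array lay above every control array of its time. The change was 0.81 ± 0.18 at 24 h (1.76-fold, adjusted p = 0.0105) and 0.99 ± 0.18 at 48 h (1.98-fold, adjusted p = 0.00558) by limma. Over both times together it was 0.90 ± 0.13 (adjusted p = 7e-04). Within U74A arrays the change was 1.03 at 24 h and 1.22 at 48 h, and within U74Av2 arrays 0.61 and 0.86. Without control replicate 1 of 24 h the change at 24 h was 0.58 with an adjusted p of 0.119. At 48 h it missed the threshold without either control array of that time, with an adjusted p of 0.061 without replicate 1 and 0.0621 without replicate 2.

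Tapasin, the bridge between transporter and heavy chain, was measured by 3 probe sets, of which 1 was called. Probe set 100154_at read 419.5, 323.7 and 320.9 in lactacystin cultures at 24 h, against 254.8 and 216.0 in controls. At 48 h the readings were 392.3, 348.4 and 442.8 in lactacystin cultures, against 256.6 and 255.8 in controls. The groups did not overlap at either time. Its change was 0.56 ± 0.14 at 24 h (1.48-fold, adjusted p = 0.0179), 0.60 ± 0.14 at 48 h (1.51-fold, adjusted p = 0.0187) and 0.58 ± 0.10 over both times (adjusted p = 0.00211) by limma. The call at 24 h was lost without lactacystin replicate 1 of that time (adjusted p = 0.0666), without control replicate 1 (adjusted p = 0.0827) and without control replicate 2 (adjusted p = 0.136). At 48 h it was lost without lactacystin replicate 1 (adjusted p = 0.0556) or 3 (adjusted p = 0.0527) of that time and without control replicate 1 (adjusted p = 0.146) or 2 (adjusted p = 0.0545).

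The other shared Tapbp probe set, 102689_at, was dimmer and split by array design. It read 251.5, 107.2 and 117.9 in lactacystin cultures at 24 h, against 170.1 and 94.0 in controls. By 48 h the signal was 108.6, 120.6 and 261.9 in lactacystin cultures, against 201.2 and 82.9 in controls. The highest value of each group came from its U74A array, and the groups overlapped. With design in the model its change was 0.34 ± 0.16 at 24 h (adjusted p = 0.191) and 0.33 ± 0.16 at 48 h (adjusted p = 0.233) by limma, positive within each design and not past the threshold. The U74Av2-only probe set 162104_f_at, whose suffix marks probes shared by a gene family, read 312.6 and 225.4 in lactacystin cultures at 24 h, against 367.2 on the 1 control array. The 48 h signals were 253.2 and 318.2 in lactacystin cultures, against 261.6 on the 1 control array. Its change was -0.42 ± 0.24 at 24 h and 0.11 ± 0.24 at 48 h (adjusted p = 0.329 and 0.826 by limma), so at 24 h it ran opposite to the other Tapbp probe sets.

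Tap1, the first subunit of the peptide transporter, was higher at 24 h. Probe set 103035_at read 271.3, 218.1 and 267.2 in lactacystin cultures at 24 h, against 155.4 and 103.1 in controls. Signals at 48 h were 198.9, 239.3 and 194.8 in lactacystin cultures, against 162.3 and 111.5 in controls. Again no exposed array fell into the range of the controls. The change was 0.86 ± 0.19 at 24 h (1.82-fold, adjusted p = 0.00962), 0.57 ± 0.19 at 48 h (adjusted p = 0.0762) and 0.72 ± 0.14 over both times (adjusted p = 0.0044) by limma. The difference between the 2 times, -0.29 ± 0.26, was not past the threshold (adjusted p = 0.62), so the changes are not shown to differ. Without control replicate 2 of 24 h the change at 24 h was 0.68, with an adjusted p of 0.175. Without lactacystin replicate 3 of 48 h the change at 48 h was 0.75 and passed, with an adjusted p of 0.0391, and over the single arrays left out that p ran up to 0.452.

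The U74Av2-only Tap1 probe set, 162278_r_at, did not follow it at 24 h. It read 50.9 and 64.7 in lactacystin cultures at 24 h, against 77.7 on the 1 control array. At 48 h the signal was 65.6 and 102.3 in lactacystin cultures, against 14.9 on the 1 control array. Its change was -0.29 ± 0.31 at 24 h and 1.29 ± 0.31 at 48 h (adjusted p = 0.6 and 0.0701 by limma on the 6 U74Av2 arrays). Without lactacystin replicate 1 of 48 h the smallest adjusted p among the U74Av2-only probe sets tested, over all the comparisons made, was 0.0396. With 1 control array a time, the spread in this fit came from the lactacystin arrays.

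Tap2, the second transporter subunit, lay near the low end of the arrays. Its signal was 35.3, 27.9 and 22.5 in lactacystin cultures at 24 h, against 13.0 and 13.4 in controls. The 48 h readings were 21.8, 52.5 and 15.0 in lactacystin cultures, against 7.97 and 19.1 in controls. The groups were apart at 24 h and overlapped at 48 h. In the limma fit without a filter on low values the change was 0.39 ± 0.23 at 24 h and 0.38 ± 0.23 at 48 h (adjusted p = 0.361 and 0.432), not past the threshold, where 8.15% of all probe sets were called at 24 h.

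**Figure D1:**
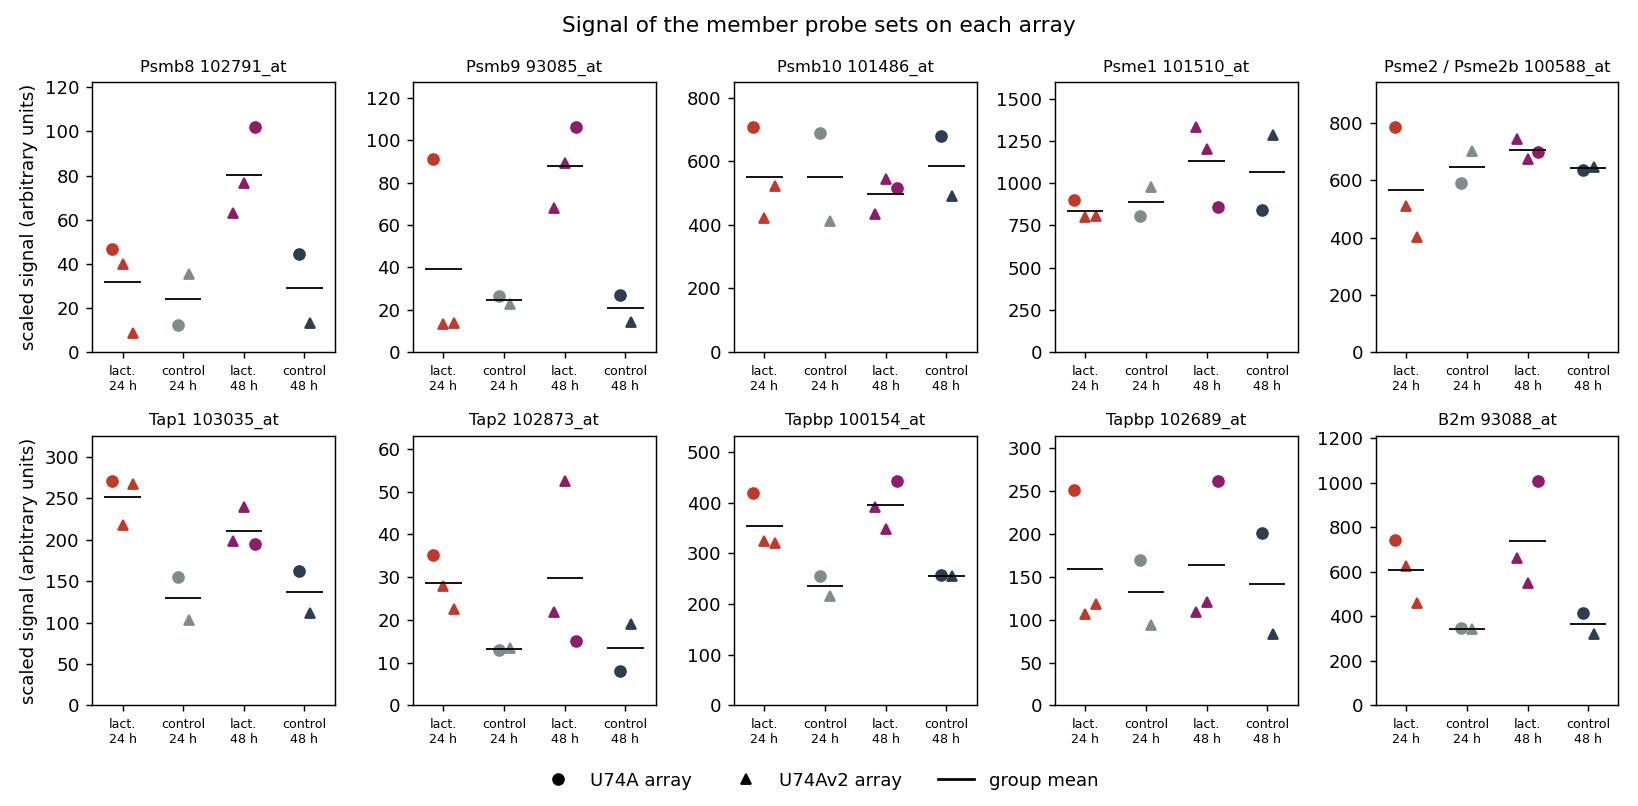
Scaled signal (arbitrary units, linear, from 0) of the 10 shared probe sets on each of the 10 arrays, in lactacystin and control cultures at 24 h and 48 h. Circles are U74A arrays, triangles U74Av2 arrays and bars group means; B2m, Tap1 103035_at and Tapbp 100154_at have every lactacystin array above the controls of its time, while Psmb10 and Psme1 overlap.

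Psmb9, the inducible counterpart of Psmb6, was low in every control culture. Its signal was 91.2, 13.3 and 13.5 in lactacystin cultures at 24 h, against 26.3 and 22.5 in controls. At 48 h the readings were 67.9, 89.5 and 106.1 in lactacystin cultures, against 27.0 and 14.3 in controls. The 24 h range was set by 1 array, the U74A one, and at 48 h all 3 exposed arrays lay above both controls. Psmb9 did not pass the filter on low values. In the fit without that filter its change was 0.27 ± 0.29 at 24 h (adjusted p = 0.646) and 1.28 ± 0.29 at 48 h (adjusted p = 0.0374) by limma, where 4.99% of all 9977 probe sets were called at 48 h. Both 48 h controls read under the added 32, so no fold is given. Of 22 alternatives, 9 kept its adjusted p at 48 h under the threshold, and the range was 0.0055 to 0.328. It missed the threshold, among others, without either control array of 48 h (adjusted p = 0.203 without replicate 1 and 0.146 without replicate 2), and without any one of the 3 lactacystin arrays of 48 h (adjusted p = 0.0786, 0.0943 and 0.053). It also did so without lactacystin replicate 2 or 3 of 24 h (adjusted p = 0.0514 and 0.0542).

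Psmb8, the inducible counterpart of Psmb5, was also low, with a wider spread. Its signal was 46.5, 39.8 and 8.35 in lactacystin cultures at 24 h, against 12.3 and 35.2 in controls. By 48 h the signal was 62.9, 76.5 and 101.9 in lactacystin cultures, against 44.6 and 13.1 in controls. The groups overlapped at 24 h and were apart at 48 h. In the limma fit without a filter the change was 0.21 ± 0.32 at 24 h (adjusted p = 0.755) and 0.97 ± 0.32 at 48 h (adjusted p = 0.122), not past the threshold. At 24 h the sign of Psmb8 and of Psmb9 differed between the array designs. U74A held 1 lactacystin and 1 control array there, and U74Av2 held 2 and 1. Design and single arrays therefore cannot be told apart. Within U74A the changes were 0.82 for Psmb8 and 1.08 for Psmb9, and within U74Av2 they were -0.32 and -0.26. At 48 h both designs gave positive values for both genes, from 0.81 to 1.25.

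Psmb10, the inducible counterpart of Psmb7, was well measured and did not pass the test. Its signal was 706.9, 420.3 and 521.5 in lactacystin cultures at 24 h, against 688.9 and 411.9 in controls. The 48 h signals were 433.0, 544.3 and 515.6 in lactacystin cultures, against 680.2 and 491.3 in controls. The groups overlapped at both times. Its change was 0.08 ± 0.17 at 24 h (adjusted p = 0.793), with a 95% confidence interval from -0.29 to 0.45. At 48 h the change was -0.14 ± 0.17 (adjusted p = 0.683 by limma), with an interval from -0.51 to 0.23.

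The activator subunits were also well above the filter. Psme1 101510_at read 897.6, 800.0 and 803.5 in lactacystin cultures at 24 h, against 805.3 and 975.8 in controls. Signals at 48 h were 1332, 1204 and 858.2 in lactacystin cultures, against 842.6 and 1284 in controls. The change was -0.14 ± 0.17 at 24 h (95% interval -0.50 to 0.23, adjusted p = 0.628) and 0.04 ± 0.17 at 48 h (-0.32 to 0.41, adjusted p = 0.913) by limma. Lactacystin and control arrays overlapped at both times. Probe set 100588_at, annotated to Psme2 and Psme2b, read 786.1, 511.5 and 403.1 in lactacystin cultures at 24 h, against 591.4 and 704.2 in controls. At 48 h the signal was 744.4, 674.8 and 699.5 in lactacystin cultures, against 637.6 and 647.2 in controls. The groups overlapped at 24 h, and at 48 h the exposed arrays lay above both controls by a small margin. Its change was -0.20 ± 0.20 at 24 h (adjusted p = 0.554) and 0.15 ± 0.20 at 48 h (adjusted p = 0.713) by limma. The U74Av2-only probe sets of these genes, 161293_r_at and 161938_r_at, read between 6.5 and 24.8 on all 6 arrays, with no change past the threshold.

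The tested probe sets cover the roles unevenly, since of the inducible catalytic subunits only Psmb10 was tested with the filter. At 24 h 3 of the 7 tested probe sets were called higher (Tap1 103035_at, Tapbp 100154_at and B2m), against 8.15% of all probe sets called higher. By limma 0 were called lower, against 6.63% of all, and 3 stood at an unadjusted p under 0.05. At 48 h 2 of 7 were called higher (Tapbp 100154_at and B2m), against 6.8% of all. By limma 0 were called lower, against 3.52% of all, and 3 stood at an unadjusted p under 0.05. Over both times 3 of 7 were called higher, against 9.51% of all. The median change of the 7 was 0.34 at 24 h and 0.33 at 48 h, beside -0.03 and 0.04 for all 6984. Of the 7, 3 had every lactacystin array above both controls at 24 h, against 17.2% of all probe sets, and 4 had this at 48 h (the Psme2 and Psme2b probe set being the fourth), against 16.7% of all. Of the 2 U74Av2-only probe sets that passed the filter on those arrays, 0 were called at either time by limma, with 1 at an unadjusted p under 0.05 at 48 h, where 7.42% of all probe sets of that fit were called at 24 h and 5% at 48 h. The comparisons at the 2 times are of different arrays. They share 1 estimate of the spread and 1 coefficient for array design, both fitted over all 10 arrays.

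These counts depended on single controls. Without control replicate 1 of 24 h, and again without replicate 2, 1 of 7 was called at 24 h. Without control replicate 1 of 48 h, and again without replicate 2, 0 were called at 48 h by limma, and without lactacystin replicate 1 of 48 h 1 was called. Over both times 3 were called whichever array was left out. The lactacystin effect at 48 h minus that at 24 h passed for 0 of 7 by limma, with 0 at an unadjusted p under 0.05, where 1.27% of all probe sets passed. From 24 h to 48 h 0 of 7 passed under lactacystin, with 1 at an unadjusted p under 0.05 (Psme1, 0.40 ± 0.15), where 11.5% of all probe sets passed. Without lactacystin replicate 1 of 24 h 2 of 7 passed there. In controls 0 of 7 and 0% of all probe sets passed between the times, with 0 of the 7 at an unadjusted p under 0.05.

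**Figure D2:**
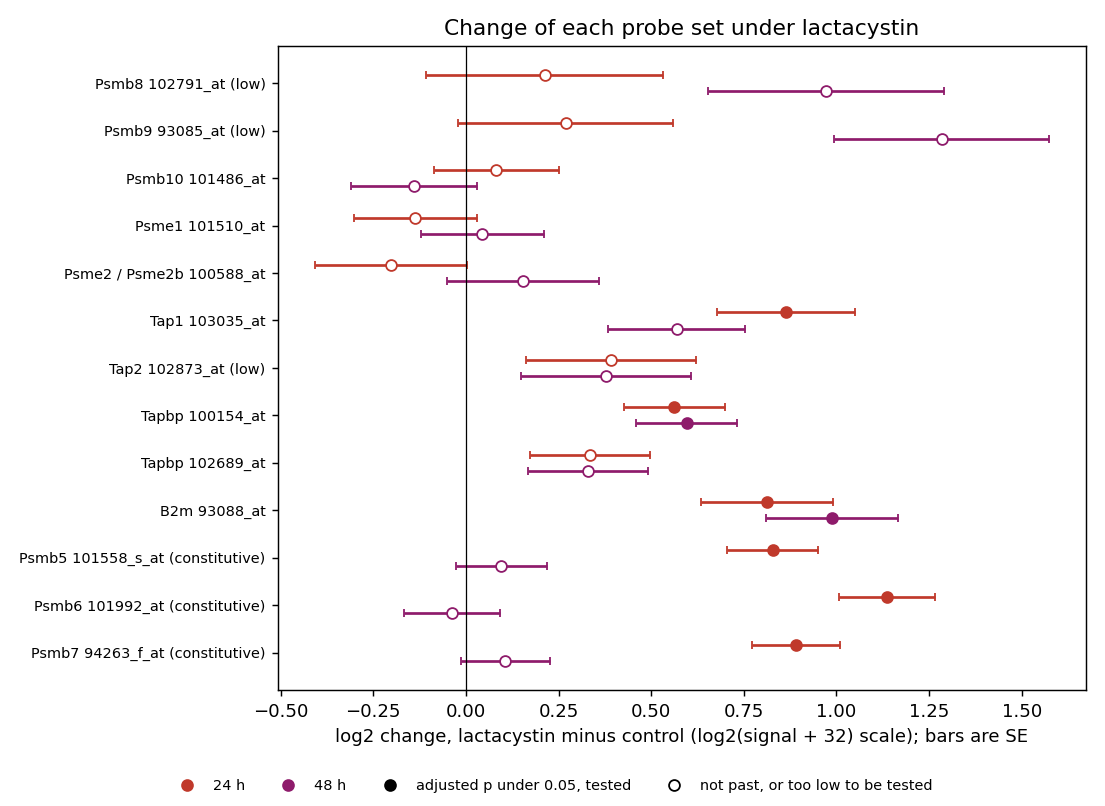
Change of each shared probe set at 24 h and 48 h, lactacystin minus control, on the scale log2(signal + 32), with SE bars, and below them the constitutive subunits Psmb5, Psmb6 and Psmb7. Filled points passed an adjusted p of 0.05 among the probe sets tested: Tap1, Tapbp 100154_at and B2m at 24 h, Tapbp 100154_at and B2m at 48 h, and the constitutive subunits at 24 h.

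The constitutive subunits that Psmb8, Psmb9 and Psmb10 replace rose at 24 h and did not pass the test at 48 h. Psmb5 averaged 4980 ± 457 in lactacystin cultures (SD, n = 3) and 2790 ± 177 in controls (SD, n = 2) at 24 h. It rose by 0.83 ± 0.12 at 24 h (adjusted p = 0.00129) and stood at 0.10 ± 0.12 at 48 h (adjusted p = 0.701) by limma. Psmb6 rose by 1.14 ± 0.13 at 24 h (adjusted p = 0.000214) and stood at -0.04 ± 0.13 at 48 h. Psmb7, measured by a probe set marked as shared within a family, rose by 0.89 ± 0.12 at 24 h (adjusted p = 0.000658) and stood at 0.11 ± 0.12 at 48 h. Their effects at 48 h minus 24 h were -0.73 ± 0.17 for Psmb5 (adjusted p = 0.0688), -1.17 ± 0.18 for Psmb6 (adjusted p = 0.0125) and -0.78 ± 0.17 for Psmb7 (adjusted p = 0.0484) by limma. In the list of constitutive subunits, other activators and assembly factors 5 of 8 tested genes rose at 24 h, against 8.15% of all probe sets. At 48 h 0 changed by limma, where 6.8% of all were called higher and 3.52% lower. A count of 0 among 8 is near that background.

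The log2 ratio of each inducible subunit to its constitutive counterpart was taken on each array, after adding 32 to both signals, and centred on its mean over the 10 arrays. Only its change between groups has a meaning, since the signals of different probe sets are not on a common scale. For Psmb8 over Psmb5 the ratio was -0.55, -0.48 and -1.27 in lactacystin cultures at 24 h, against -0.34 and 0.14 in controls. The ratios at 48 h were 0.73, 0.59 and 1.17 in lactacystin cultures, against 0.38 and -0.37 in controls. The exposed arrays thus lay below the controls at 24 h and above them at 48 h, with mean differences of -0.67 and 0.83.

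For Psmb9 over Psmb6 the differences were -1.01 at 24 h, where 1 exposed array fell among the controls, and 1.17 at 48 h, where all 3 lay above. Psmb10 over Psmb7 differed by -0.94 at 24 h and -0.38 at 48 h, and the groups overlapped at both times. Within each array design the differences kept these signs. By an exact two-sided permutation test none of the 6 comparisons could go below p = 0.2, the smallest that 3 against 2 arrays allow. The adjusted p over the 6 was 0.4 for each. The ratios of Psmb8 and Psmb9 rest on low signals, several of them under the added 32.

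**Figure D3:**
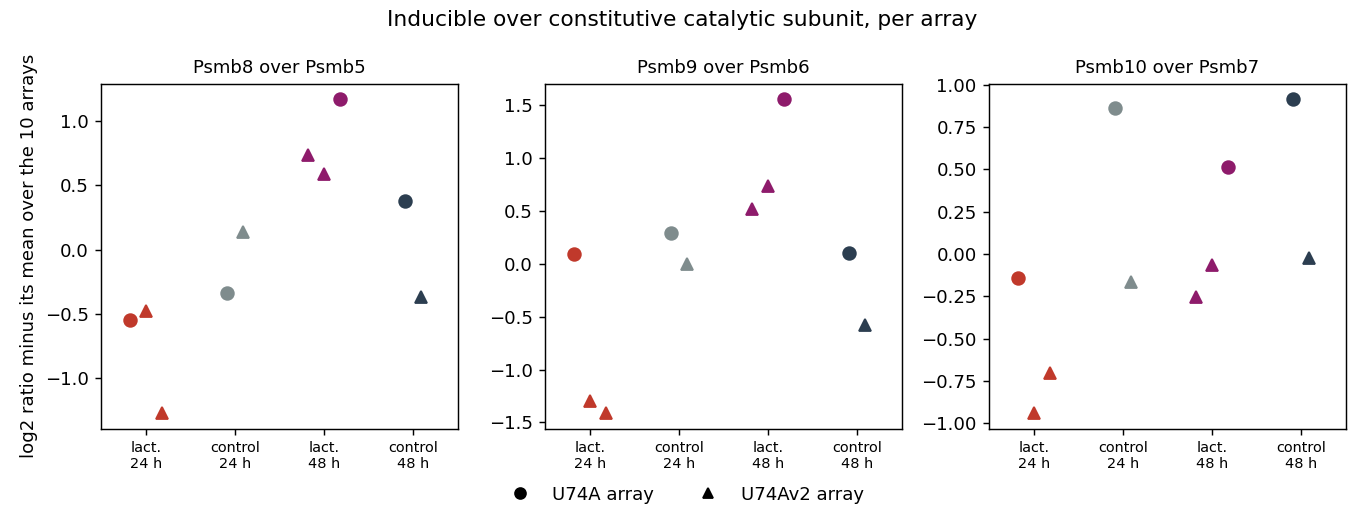
Log2 ratio of each inducible subunit to its constitutive counterpart on each array, minus its mean over the 10 arrays, in lactacystin and control cultures at 24 h and 48 h; circles are U74A arrays and triangles U74Av2 arrays. Psmb8 over Psmb5 lies below the controls at 24 h and above them at 48 h under lactacystin, and Psmb10 over Psmb7 overlaps at both times.

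The class I heavy chains, which B2m and tapasin accompany, were read together with class I-like molecules in a single list. Of 22 genes listed, 12 had a shared probe set and 9 were tested. At 24 h 1 rose, against 8.15% of all probe sets, and at 48 h 1 rose, against 6.8% of all, which is near the background at both times, and the median change was 0.06 at 24 h and 0.37 at 48 h. The gene called at both times was Cd1d1, a class I-like molecule that presents lipids, with 0.82 ± 0.13 at 24 h (adjusted p = 0.00214) and 0.66 ± 0.13 at 48 h (adjusted p = 0.0104) by limma. No other gene of the list passed at 24 h or at 48 h. H2-D1, a classical heavy chain, stood at 0.27 ± 0.13 at 24 h and 0.46 ± 0.13 at 48 h (adjusted p = 0.198 and 0.0513 by limma). Over both times together H2-D1 was called, at 0.37 ± 0.10 (adjusted p = 0.0263 by limma). With Cd1d1 that made 2 of 9 called higher over both times, against 9.51% of all probe sets. H2-Bl stood at 0.85 ± 0.30 at 48 h (adjusted p = 0.0977). Heavy chain probe sets such as that of H2-D1 are marked as shared within the family, and their signal cannot be assigned to 1 gene with certainty.

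Among 8 tested genes of peptide loading and the endoplasmic reticulum, 1 was called at 24 h and 2 at 48 h. Over all probe sets 8.15% were called higher and 6.63% lower at 24 h, and 6.8% and 3.52% at 48 h. The count at 24 h is thus near the background. Hspa5, the chaperone BiP, rose by 0.82 ± 0.10 at 24 h (adjusted p = 0.000327) and stood at -0.06 ± 0.10 at 48 h. Ganab, a glucosidase that trims new glycoproteins, rose by 0.63 ± 0.14 at 48 h (adjusted p = 0.0181), and Uggt1, which marks misfolded ones, fell by 0.57 ± 0.16 on the log2 scale (adjusted p = 0.0482), all by limma. Canx and Pdia3, partners of the loading complex, did not pass at either time. Of 6 tested cytosolic peptidases, which trim or destroy proteasome products, 1 was called at 24 h (Ide, 1.05 ± 0.20, adjusted p = 0.00544) and 0 at 48 h by limma. These peptidase counts are near the background at both times.

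Interferon signalling genes, the known inducers of the set, gave 0 calls of 12 tested at either time by limma. Over all probe sets 8.15% were called higher and 6.63% lower at 24 h, and 6.8% and 3.52% at 48 h, so a count of 0 among 12 is near the background. Irf1, a transcription factor that acts on class I promoters, stood at 0.82 ± 0.37 at 24 h and 0.53 ± 0.37 at 48 h (adjusted p = 0.166 and 0.428). The probe set of Ifng had a mean signal of 4.91 over the arrays and did not pass the filter. Of 26 interferon-inducible genes listed, 19 had a shared probe set and 4 passed the filter. Gbp3, an interferon-inducible GTPase, rose by 1.15 ± 0.20 at 24 h (adjusted p = 0.0027) and by 1.15 ± 0.20 at 48 h (adjusted p = 0.00432). Ifi202b rose by 2.86 ± 0.31 at 24 h (adjusted p = 0.000136) and by 1.09 ± 0.31 at 48 h (adjusted p = 0.0463). Its control signals averaged 7.15 at 24 h and 10.3 at 48 h, under the added 32, so these values depend on that constant and the probe set passed the filter through the exposed arrays. Ifit2 rose at 48 h, by 1.06 ± 0.24 (adjusted p = 0.0196), and stood at 0.11 ± 0.24 at 24 h, all by limma. The fourth, Irgm2, did not pass at either time. With 15 of the 19 under the filter, this list describes few genes. Class II genes gave 0 calls of 3 tested at both times by limma, which is also near the background.

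**Figure D4:**
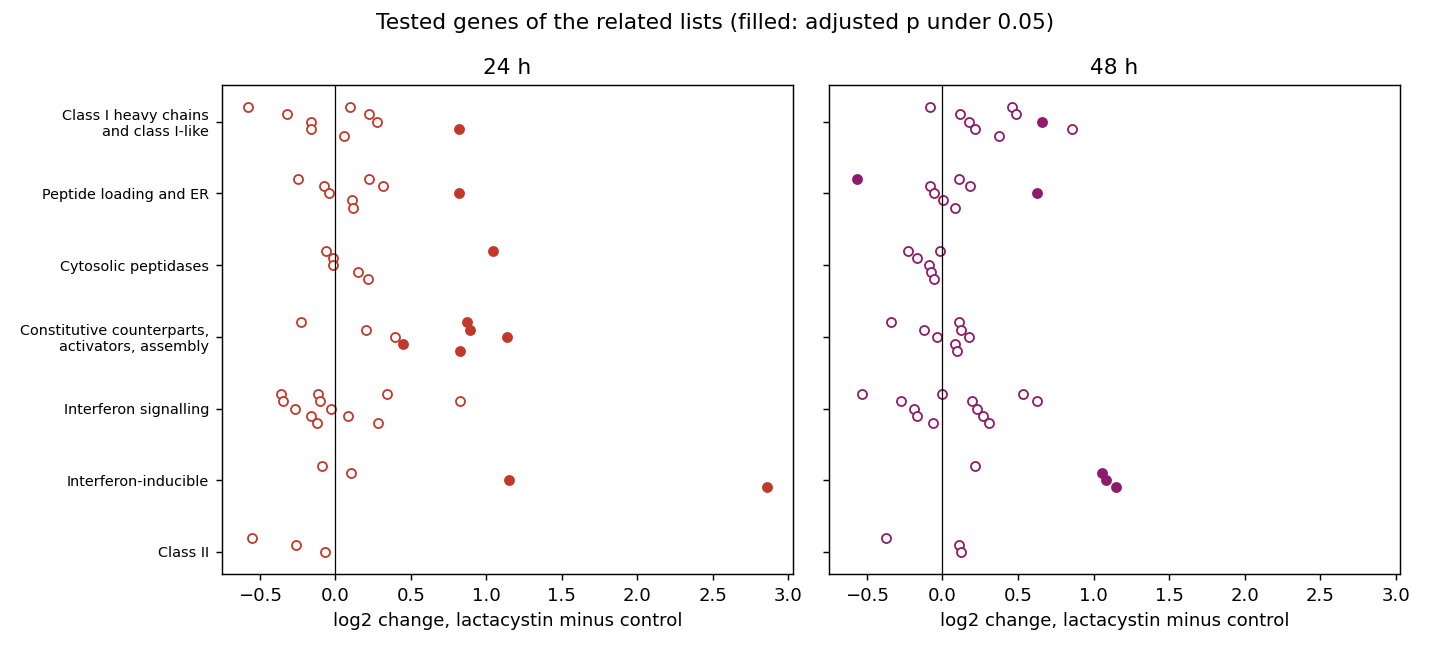
Log2 change at 24 h and at 48 h, lactacystin minus control, of the tested genes of 7 lists related to class I presentation; each point is a gene, filled where its adjusted p was under 0.05. Of the 8 genes listed with the constitutive proteasome, 5 are filled and to the right of 0 at 24 h, none is filled at 48 h and Psme3 lies left of 0 at both times; interferon signalling has no filled point.

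Class I genes are also expressed by glia and other cells of a cortical culture, so marker lists were read beside the calls. Over all probe sets 8.15% were called higher and 6.63% lower at 24 h, and 6.8% and 3.52% at 48 h. In lists of this length a single call is near these shares. Of 8 tested markers of microglia and macrophages 1 rose at 24 h (Cd68) and 3 at 48 h (Cd68, Tyrobp and Ctss). Tyrobp averaged 97.5 in lactacystin cultures at 48 h and 46.8 at 24 h, and 48.5 (24 h) and 40.7 (48 h) in controls. Only the first of these is above the filter signal of 51.1, so Tyrobp was tested through the group where it is high. The 12 markers with a probe set summed to a signal of 907.3 to 1709 in lactacystin cultures and 841.5 to 1141 in controls at 24 h. At 48 h the sum was 1201 to 2097 in lactacystin cultures and 691.9 to 1445 in controls. Of the 12, 4 were under the filter (Ptprc, Itgam, Aif1 and C1qb, with mean signals of 9.68, 7.92, 19.1 and 47.9). In the limma fit without a filter C1qb stood at 1.35 ± 0.33 at 48 h (adjusted p = 0.0505). Others that also mark these cells were above the filter, with mean signals of 206 for Cx3cr1, 208 for C1qc, 92.0 for C1qa and 72.5 for Csf1r. These 4 did not pass the test at either time. Lyz2, the remaining tested marker, did not pass either and stood at 0.62 ± 0.20 at 48 h (adjusted p = 0.0793 by limma). The median change of the 8 tested markers was -0.04 at 24 h and 0.48 at 48 h, beside -0.03 and 0.04 for all probe sets.

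Astrocyte markers gave 1 rise and 3 falls of 7 tested at 24 h and 2 rises at 48 h. Fibroblast and mural markers gave 1 rise of 7 at 24 h (Tagln) and 2 at 48 h (Tagln and Acta2). Neuron markers gave 3 falls of 7 at each time. Lymphocyte, endothelial and oligodendrocyte markers gave 0 calls at each time by limma. Only 2, 2 and 1 of them were tested, so 0 calls is near the background. The 7 neuron markers summed ranged from 13011 to 18122 in lactacystin cultures and from 19425 to 26644 in controls at 24 h. At 48 h they ranged from 14809 to 23505 in lactacystin cultures and from 24138 to 28771 in controls. These sums are mostly Stmn2 and Gap43, with mean signals of 9743 and 5946 over the arrays. Nefm was the only 1 of the 7 with a positive change, at 0.41 ± 0.27 at 24 h and 0.43 ± 0.27 at 48 h (adjusted p = 0.347 and 0.371 by limma). The part of cell composition in the rises of B2m, Tapbp and Tap1 was not tested.

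Over the 10 arrays, with the mean of each array design taken out, B2m and Tapbp 100154_at had a Pearson correlation of 0.94. Tap1 103035_at had 0.76 with that Tapbp probe set and 0.66 with B2m, and Psme1 had 0.80 with the Psme2 and Psme2b probe set. Psmb10 had between -0.42 and 0.30 with the others. These are descriptions over arrays that share the 4 groups. The genes most like B2m were Tom1l1 (0.97), Pdlim1 (0.96) and Fgfr1 (0.96). Those most like Tapbp 100154_at were Sparc, Itga6 and Fgfr1 (0.98, 0.98 and 0.97), and those most like Tap1 were Crtap, Zfp105 and Lims1 (0.99, 0.97 and 0.97). By position, Psmb8, Psmb9, Tap1, Tap2 and Tapbp lie on chromosome 17, Psme1 and Psme2 on 14, B2m on 2 and Psmb10 on 8. Thus the genes called lie on chromosomes 17 and 2, and of the genes on 17 Psmb8, Psmb9 and Tap2 were too low for the main test.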

How the data were processed

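RNA of primary cortical cultures was measured on 10 Affymetrix arrays, 4 of the U74A and 6 of the U74Av2 design. The authors deposited intensities on a linear scale, each probe set summarised into a single signal. MAS5 is the tool named by the submitters' processing notes, without a version. Scaling, filter and model are stated with the results: a pseudocount of 32 was added, and the lowest 30% (a mean log2 value equal to a signal under 51.1) and the 66 control probe sets were left out. The 4 groups were fitted together with array design as a covariate (limma 3.58.1, R 4.3.3, lmFit and eBayes with trend, two-sided, Benjamini-Hochberg adjustment over 6984 probe sets). The comparison over both times had time and design as covariates. Values of members under the filter came from the same fit on 9977 probe sets, and those of U74Av2-only probe sets from the 6 U74Av2 arrays.

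Symbols came from the platform annotation. On U74Av2 10833 probe sets had 1 symbol, 396 several and 1193 none. All member probe sets were named. Of each related list up to 4 genes with the largest change at each time could be named, and for members called the 3 genes of highest correlation. Cd68, Tyrobp, Ctss, Tagln, Acta2, Ptprc, Itgam, Aif1, C1qa, C1qb, C1qc, Cx3cr1, Csf1r, Lyz2, Stmn2, Gap43, Nefm and Ifng were named after their values were seen. The members and lists were chosen with earlier results of these data known. A simulation over 6984 probe sets recovered 23.9% of changes of 1.5-fold at 24 h, 70.1% of those of 2-fold and 97% of those of 4-fold, with 1.55% false among the calls. At 48 h it recovered 29.9%, 73.1% and 93.9%, with 5.07% false. The simulated noise was normal and independent between arrays and probe sets, and 66 or 67 probe sets were changed at each fold. In the data 1032 were called at 24 h, so these shares may differ from those of the data. The alternatives were other pseudocounts, scalings, filters, variance models and treatments of array design, the replicate number as a block, the arrays of 1 time alone, and each array left out.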

Additional observations from a re-analysis of the deposited data

Results flagged for a closer look

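The effect of lactacystin at 48 h minus that at 24 h passed an adjusted p of 0.05 in limma for 3 genes named beside the set, and for none of its 7 tested probe sets. Psmb6, the constitutive counterpart of Psmb9, differed by -1.17 (adjusted p = 0.0125), Psmb7, that of Psmb10, by -0.78 (adjusted p = 0.0484), and Hspa5, the endoplasmic reticulum chaperone BiP, by -0.88 (adjusted p = 0.0129). In each the rise at 24 h was larger than the change at 48 h.

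The log2 ratio of Psmb8 over Psmb5 differed by -0.67 at 24 h, with all 3 lactacystin arrays below both controls. At 48 h it differed by 0.83, with all 3 above both controls. By an exact two-sided permutation test p was 0.2 at each time, the smallest that 3 against 2 arrays allow. The adjusted p over 6 comparisons was 0.4 at each time. Psmb8 did not pass the filter on low values, and the ratio rests on its low signals. At 24 h Psmb8 changed by 0.21 ± 0.32 and Psmb5 by 0.83 ± 0.12. At 48 h these changes were 0.97 ± 0.32 and 0.10 ± 0.12. The difference of the ratio between the times was not tested.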

How the results depend on the processing

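Calls of the 7 tested members depended mainly on how array design was treated and on the 2 controls of each time; the causes were not tested. Signals under the added 32, where Psmb8, Psmb9 and Tap2 partly lie, limit what the arrays can show. Psmb5, Psmb6 and Psmb7 at 24 h kept their direction and their call under each of 25 alternatives (adjusted p from 4.53e-05 to 0.0442).

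Without a covariate for array design the probe sets called numbered 249 at 24 h, 117 at 48 h, 2 for the difference of the effects, 133 for time under lactacystin and 485 over both times, with 0 members at 24 h and 0 at 48 h. On U74Av2 arrays alone the calls were 558 at 24 h, 387 at 48 h, 12 for the difference and 524 over both times. There 1 member was called at 24 h, 0 at 48 h and 1 for time under lactacystin, and the sign turned for Psmb8 (-0.32) and Psmb9 (-0.26) at 24 h and Psme1 (-0.020) at 48 h. With design as a random block 47 were called for the difference, with no filter 48 and without a variance trend 37.

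Quantile normalization left 1 member called at 48 h. Median scaling, which moved the median of all probe sets by -0.15 at 48 h and -0.17 for the difference, also left 1 member at 48 h and called 167 for the difference. It gave Psme1 -0.12 and the Psme2 and Psme2b probe set -0.0057 at 48 h. Of the calls at 48 h 31.1% were higher under it, against 65.9%; for the difference 12% against 34.8%, for time under lactacystin 29.8% against 54%, and over both times 39.1% against 56%. With the arrays of 48 h alone 439 were called, 1 of them a member, and Psme1 stood at -7e-04.

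Whether replicate numbers pair the samples was not settled. Array design was left in the deviations that were correlated, so their sign followed the design. Same-numbered arrays of 1 design had deviations correlated at 0.23 to 0.67, those of different designs at -0.62 to -0.55. Differently numbered arrays of 1 design had 0.29 to 0.74. With the replicate block beside design 1 member was called at 48 h and 741 probe sets over both times. With the replicate block in place of design the calls were 171 at 24 h, 81 at 48 h, 0 for the difference, 57 for time under lactacystin and 366 over both times, with 0 members at 24 h, 0 at 48 h and 0 over both times, and Psme1 stood at 0.016 at 24 h.

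With each array left out in turn the calls ran from 307 to 1099 at 24 h, 213 to 825 at 48 h, 5 to 188 for the difference, 324 to 825 for time under lactacystin, 758 to 1148 over both times and 0 to 2 for time in controls. Members called ran from 1 to 3 at 24 h, 0 to 2 at 48 h and 0 to 2 for time under lactacystin, and U74Av2-only probe sets from 0 to 1. At 24 h the change ran from -0.10 to 0.24 for Psmb10, -0.52 to 0.066 for the Psme2 and Psme2b probe set, -0.32 to 0.83 for Psmb8 and -0.18 to 0.61 for Psmb9. At 48 h it ran from -0.27 to 0.046 for Psmb10 and -0.13 to 0.25 for Psme1.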
